A study of Drosophila melanogaster with 12 samples.

Results

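Heads of unmated male Oregon-R flies, a wild type strain of Drosophila melanogaster, were compared after 2 days on food containing pentylenetetrazole (PTZ) and on normal food (NF). The comparison rests on the 4 two-colour cDNA arrays of the 2nd day, out of 12 arrays in the series, which also covers 12 hrs and the 7th day of PTZ. PTZ was given at 8 mg per ml of food to males that were 3 to 4 days old at the start, with 30 flies per vial. The control RNA came from males of the same strain kept on NF for the same time. Both RNAs of an array were taken from pools of whole heads, so that brain, eye, head fat body, muscle and cuticle are mixed and a lower ratio can stand for fewer cells of a kind or for less RNA per cell.

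PTZ blocks chloride channels gated by GABA, the main inhibitory transmitter of the fly brain as of the mammalian brain, and repeated subconvulsant doses in rodents are used to model the slow development of seizure susceptibility. The 2nd day was described by the study as a latent phase. The question put to these arrays was which genes in the head had changed by then.

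Each value is a log2 ratio that the authors normalized and deposited, where 0 is equal signal in both dyes. On replicates 1 and 2 (forward arrays) PTZ RNA carried Cy5, and a ratio below 0 means less RNA in PTZ flies. On replicates 3 and 4 (swapped arrays) PTZ RNA carried Cy3, and the sources used here do not say whether their ratios had already been turned to PTZ over NF. Results over all 4 arrays are therefore given in both readings, with the swapped values turned (multiplied by -1) and as deposited. One label of replicate 2 calls its NF channel treated, and its orientation was taken from the title, the treatment protocol and the methods. The labels do not say whether replicates came from separate cultures, although the methods call them biological replicates, each made of several sets of flies. If they share cultures, the p-values measure only the spread between these arrays, which may be technical. In the fits as deposited on the forward or swapped arrays alone, that spread was taken as common to all features.

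Of 13824 features on the array, each the mean of 2 adjacent spots of a probe, 5279 had a value on 3 or more of the 4 arrays. A single gene symbol was known for 7558 of all features, which stand for 6793 genes. Among the 4964 features measured on both forward arrays the replicates were close to each other (Pearson's r of 0.727 across features, which share slide layout and dyes and are not independent). Replicate 3 as deposited followed the forward arrays in part (r of 0.302 and 0.299), whereas replicate 4 ran slightly against them (-0.111 and -0.129), and the swapped arrays had an r of 0.166 with each other. Neighbouring features in spot order also resembled each other, with a Spearman's rho of 0.487 and 0.464 on the forward arrays and 0.366 and 0.304 on the swapped arrays. Medians over features with 3 or more values were -0.16 and -0.23 on the forward arrays and -0.01 and -0.03 on the swapped arrays. Their mean was -0.11 ± 0.10 (SD, n = 4) as deposited (exact sign-flip permutation test, two-sided p = 0.13, the smallest that 4 arrays allow) and -0.09 ± 0.13 turned (p = 0.5).

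Deposited values had passed a filter on signal over background, so that a value stands for a detected cDNA. The neuronal genes nSyb and Rbp9, a synaptic vesicle SNARE and an RNA-binding protein, had values on all 4 arrays, as did the photoreceptor arrestin gene Arr1. Of 6 testis marker genes on the array 1 had a value on both forward arrays, and of 5 genes of the accessory gland and ejaculatory tract also 1. Among all 6793 genes with a single symbol, 2783 had a value on both forward arrays. Counting genes with any value gave 3 of the 6 and 3 of the 5, against 4334 of 6793. With so few markers, these counts do not tell whether RNA of these tissues was absent. Forward values of the neuronal pair were 0.07 and -0.36 for nSyb and 0.14 and -0.17 for Rbp9, and neither gene passed the test.

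On the forward arrays the lowest mean belonged to apolpp, which encodes the apolipophorins that carry lipid in the haemolymph. Its ratios were -1.70 and -1.56 on replicates 1 and 2, and -0.48 and -0.64 on replicates 3 and 4. Every array was below 0. A 2nd feature of apolpp had -1.02 and -1.45 forward and -0.25 and -0.81 swapped. Among genes with values on all 4 arrays dsx came next, the doublesex transcription factor that directs somatic sex differentiation, with ratios of -1.38 and -1.53 on the forward arrays and -0.05 and -0.21 on the swapped arrays. Yp1, a yolk protein gene that dsx regulates and that is known from the female fat body, had -0.70 and -2.32 forward, -0.03 on replicate 3 and no value on replicate 4, so that replicate 2 carries most of its mean. Cyp4d21, a cytochrome P450 gene known as sex-specific enzyme 1 and expressed in the male head fat body, had -1.07 and -1.54 forward, with -0.40 and 0.07 swapped. The adjusted p was 1.7e-29 for apolpp, 8.0e-24 for dsx, 1.1e-25 for Yp1 and 3.4e-19 for Cyp4d21 (limma on the mean of the forward arrays against 0, two-sided, Benjamini-Hochberg over 4964 features). These very small values follow the mean alone, because the fit gave all features the same standard error of 0.13, and they do not rank genes by how well the replicates matched.

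Of the 7 fat body markers measured on both forward arrays 4 were lower, namely apolpp, Yp1, Cyp4d21 and Yp3, and 0 were higher. Over all features 33.3% were called lower and 7.43% higher there. Yp3, a further yolk protein gene, had -0.50 and -0.998 and no value on the swapped arrays. Lsp2, a larval serum protein gene that marks fat body, had -0.14 and -0.31, the alcohol dehydrogenase gene Adh -0.06 and -0.13, and Yp2 0.20 and -0.30, and none of these passed. The markers thus did not move as a block, with a median of -0.75 over the 7 against -0.20 over all 2783 named genes. Whether the amount of fat body left on the heads differed between the PTZ and NF pools was not tested. Muscle markers had a forward median of -0.03 over 8 genes, with TpnC73F higher (0.79 and 0.19) and 0 lower.

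**Figure D1:**
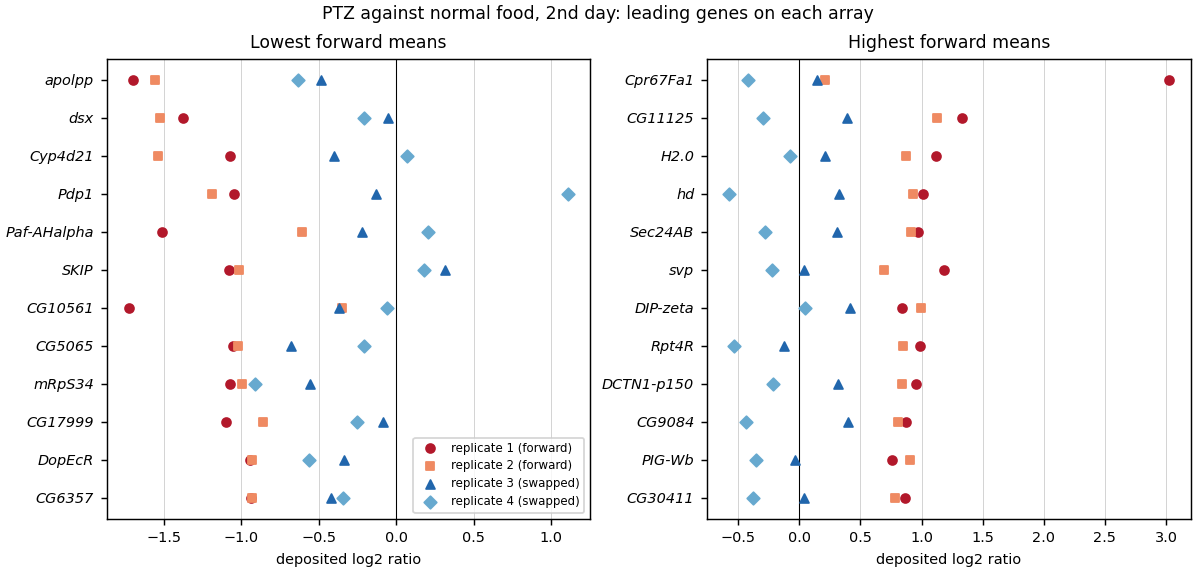
Deposited log2 ratios of the 12 genes with the lowest (left) and the 12 with the highest (right) forward means among genes measured on all 4 arrays that passed the test both as deposited and after centring, with 1 symbol per array (circles and squares for forward arrays, triangles and diamonds for swapped arrays). The forward symbols stand apart from 0 while most swapped symbols lie nearer to it; every gene on the left except Cyp4d21, Pdp1, Paf-AHalpha and SKIP is below 0 on all 4 arrays, and Cpr67Fa1 owes its place to 1 array at 3.02.

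Counted over the array, PTZ flies had 1653 lower and 369 higher features on the forward arrays (limma, adjusted p under 0.05). With 1 standard error for all features, these calls amount to a cutoff on the forward mean. Lower features had a median of -0.46 and higher ones of 0.50, and 31 features exceeded 1 in size. Since both forward arrays are centred below 0, the balance depends on where 0 is set. With each array centred on its own median, 749 were lower (15.1%) and 753 higher (15.2%). All 749 had been lower as deposited, and 368 of the 369 higher ones (7.41% of features) also passed after centring. Centring raised every forward mean alike, so that this overlap was largely fixed beforehand and adds no support to the calls. The leading genes above are among those lower in both cases, with centred forward means of -1.45 for apolpp, -1.28 for dsx and -1.13 for Cyp4d21. With the median of the neighbouring features subtracted from each feature, which removes trends along the slide, 528 were lower and 339 higher. A dye effect cannot be told apart from PTZ on the forward arrays alone.

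Other low genes included several with roles in neurons. Pdp1, a PAR-domain transcription factor of the circadian clock, had -1.05 and -1.19 forward, then -0.13 and 1.11 on the swapped arrays, which lie far apart from each other. SKIP, which encodes a protein that binds the Shal potassium channel, had -1.08 and -1.01 forward and 0.32 and 0.18 swapped. The swapped values of SKIP are thus of the opposite sign. DopEcR, a receptor for dopamine and ecdysteroids, had -0.95 and -0.93 forward and -0.34 and -0.56 swapped, and its 2nd feature had -1.08 and -0.89 forward with -0.03 and -0.15 swapped. Both features of DopEcR were below 0 on every array. Paf-AHalpha, a subunit gene of platelet-activating factor acetylhydrolase, had -1.51 and -0.61 forward with -0.22 and 0.20 swapped. mRpS34, a protein of the small mitochondrial ribosomal subunit, had -1.08 and -0.99 forward and -0.56 and -0.91 swapped. Among the 12 genes with the lowest forward means, mRpS34 had the lowest mean on the swapped arrays, and its swapped values still lay above its forward values. CG5065, CG17999 and CG6357 had forward means of -1.04, -0.98 and -0.94, with swapped means of -0.44, -0.17 and -0.38. CG10561 had -1.73 and -0.35 forward, so that replicate 1 carries it.

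CG11125 had 1.33 and 1.13 on the forward arrays and 0.39 and -0.30 on the swapped arrays. H2.0, a homeobox gene, had 1.12 and 0.87 forward with 0.21 and -0.08 swapped. The gene hd, humpty dumpty, which acts in DNA replication, had 1.01 and 0.93 forward with 0.33 and -0.58 swapped. These 3 genes share a pattern, high on both forward arrays, slightly above 0 on replicate 3 and below 0 on replicate 4. Sec24AB, a coat protein of vesicles that leave the endoplasmic reticulum, had 0.97 and 0.91 forward. DCTN1-p150, the large dynactin subunit known as Glued, had 0.95 and 0.84 forward. Both had 0.31 on replicate 3, and -0.28 and -0.21 on replicate 4. DIP-zeta, a cell surface protein that binds Dpr proteins at synapses, was above 0 on all 4 arrays with 0.84, 1.00, 0.42 and 0.05. Rpt4R, a proteasome ATPase paralogue, had 0.99 and 0.85 forward and -0.13 and -0.53 swapped. CG9084, PIG-Wb and CG30411 had forward means of 0.84, 0.83 and 0.82.

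Some higher calls rest on 1 array or 1 feature. Cpr67Fa1, a cuticle protein gene, had 3.02 on replicate 1 against 0.21 on replicate 2. The nuclear receptor gene svp had 1.18 and 0.69 on one feature and -0.54 and -0.62 on another, with both calls past the threshold in opposite directions. NimC1, a phagocytosis receptor of haemocytes, had 0.82 and 1.41 on one feature and -0.34 and -0.05 on another. For genes such as these the direction is not settled by the array.

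The same features behaved differently on the swapped arrays, and differently on each of them. Of the features lower on the forward arrays, 63.6% were below 0 on replicate 3 and 53.8% on replicate 4, where 52.7% and 55.9% of all features were below 0. Of those higher on the forward arrays, 15.7% were below 0 on replicate 3 but 75% on replicate 4. The medians of the lower features were -0.07 and -0.02 on replicates 3 and 4, and those of the higher features 0.16 and -0.12. Replicate 3 as deposited therefore leaned to the same side as the forward arrays and replicate 4 to the opposite side for the higher features, and for the lower features neither array moved far from its median.

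**Figure D2:**
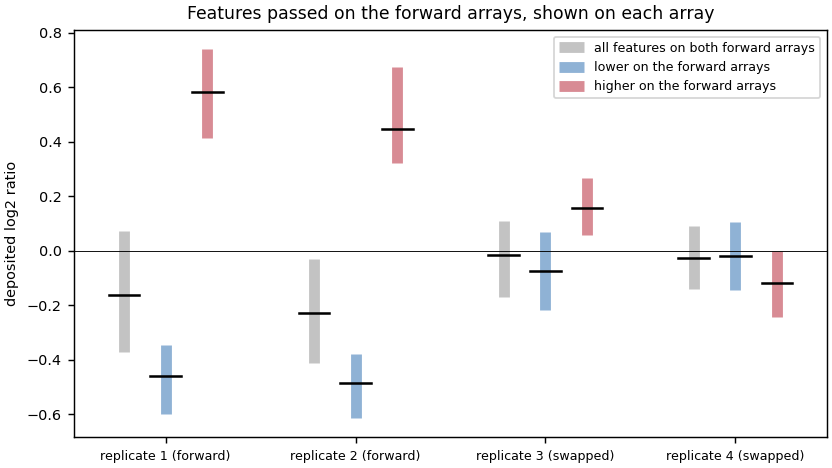
Interquartile range (bar) and median (black line) of the deposited log2 ratio on each array of the 2nd day, for all 4964 features measured on both forward arrays (grey), the 1653 lower (blue) and the 369 higher (red) there. On the forward arrays the separation follows from how the features were chosen; on replicate 3 the higher features had a median of 0.16 and on replicate 4 of -0.12.

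On the swapped arrays by themselves, 38 features were lower (0.811%) and 16 higher (0.341%) as deposited, of 4686 measured on both. This fit too gave all features the same standard error, here 0.14, so that these calls follow the mean alone. After centring, 13 were lower and 8 higher. The lowest named gene, CG4409, had -1.22 and -1.15 on replicates 3 and 4 and -0.56 and -0.82 on the forward arrays. Drs, the antifungal peptide drosomycin, had -1.91 and -0.39 swapped and -0.57 and -0.46 forward, so that replicate 3 decides its place. Jhbp13, a gene of the juvenile hormone binding protein family, had -0.88 and -0.83 swapped with -0.36 and -0.72 forward. CG4409, Drs and Jhbp13 were below 0 on all 4 arrays. The retinoid-binding protein gene pinta had -0.69 and -0.90 swapped, and 0.38 and -0.83 forward.

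The 4 highest named genes of the swapped arrays had forward means below 0, as did 74.8% of the features measured on both forward arrays. Cyp4ad1, a cytochrome P450 gene, had 1.27 and 0.85 swapped with -0.68 and 0.01 forward. Ns4, a GTPase gene of the nucleostemin family, had 0.56 and 1.41 swapped with -0.44 and -0.08 forward. The gene gol, goliath, encodes a ubiquitin ligase and had 0.48 and 1.21 swapped with -0.70 and -0.61 forward. Pdp, the phosphatase that switches pyruvate dehydrogenase on, had 1.04 and 0.21 swapped with -0.52 and -0.46 forward. These 4 genes were chosen for their high swapped means. After centring, Pdp no longer passed on the swapped arrays (limma, adjusted p = 0.075). Turned, gol was below 0 on all 4 arrays, with a mean of -0.75 ± 0.32 (SD, n = 4), and as deposited its mean was 0.09 ± 0.92.

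Over all 4 arrays few features passed. With the swapped arrays turned 0 of 5279 features passed in limma, although 396 lower and 96 higher ones had p under 0.05 before adjustment. As deposited 1 passed (0.0189%), a feature without a gene symbol that had -0.85, -1.01, -0.86 and -0.97 (adjusted p = 0.020), with 939 lower and 162 higher unadjusted. It was named after its values were seen. SAM, the method the study used, was computed here by a separate implementation over all sign flips of the arrays, so its counts can differ from those of the original program. It called 0 lower and 1 higher turned and 1145 lower and 0 higher as deposited at a false discovery rate of 0.05. At 0.14 it called 701 lower and 1 higher turned, and 2428 lower and 0 higher as deposited. SAM and limma thus differed widely on the same values.

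A fit with a term for the dye orientation separates the average of the forward and swapped means, here called the sum, from the average of the forward mean and the turned swapped mean, here called the difference. As deposited, the sum is PTZ over NF and the difference is the dye effect, and turned, the roles change. The sum was lower for 1240 features (23.5%) and higher for 301 (5.7%), and the difference lower for 742 (14.1%) and higher for 234 (4.43%). In both readings, 391 features were lower (7.41%) and 146 higher (2.77%), that is, with the same fitted sign of PTZ over NF however the swapped arrays are read. Of the 146 higher ones 121 had a value on replicate 1 and 126 on replicate 2, so that some rest on 1 forward array, while of the 391 lower ones 373 and 386 did. Among features with values on all 4 arrays the counts were 297 lower and 68 higher. Such features are those whose forward mean is far from 0 while the swapped mean is near it, and their direction comes from the forward arrays. Lower ones had a forward median of -0.67 and a swapped median of -0.02, and higher ones 0.78 and 0.01. With centred arrays 25 were lower (0.474%) and 112 higher (2.12%), of which all 25 and 104 (1.97%) were also called without centring. The split of lower and higher moved with the zero point, since with centred arrays the sum was lower for 215 and higher for 315, and the difference for 97 and 177. With neighbours subtracted the sum was lower for 126 and higher for 68, the difference for 19 and 34, and 7 were lower and 18 higher in both readings. In either reading the dye effect would be about as large as the effect of PTZ for these features.

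Among the 391 lower ones, apolpp had a sum of -1.09 ± 0.09 and a difference of -0.53 ± 0.09 (fitted value ± SE, on the log2 scale). For dsx they were -0.79 ± 0.09 and -0.66 ± 0.09, and for Cyp4d21 -0.74 ± 0.09 and -0.57 ± 0.09. SKIP had -0.40 ± 0.09 and -0.65 ± 0.09. These 4 genes also passed in both readings with centred arrays. Pdp1 leaned to the turned reading, with -0.32 ± 0.11 for the sum and -0.81 ± 0.11 for the difference. Yp1 and Paf-AHalpha passed in both readings as deposited but not when centred. Mes2 had -1.02 and -1.28 forward and 0.11 on replicate 3. MICU3, of a family that regulates mitochondrial calcium uptake, was measured on 3 arrays, with -1.10 on replicate 1 and -0.12 and -0.29 on the swapped arrays. By contrast mRpS34 passed for the sum (-0.88 ± 0.09) and not for the difference (-0.15 ± 0.09).

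Among the 146 higher ones were CG11125, NimC1 and Cpr67Fa1, with sums of 0.64, 0.45 and 0.74 and differences of 0.59, 0.66 and 0.88. MED10, a subunit of the Mediator complex that links transcription factors to RNA polymerase II, had 1.09 on replicate 1 and 0.10 and -0.18 on the swapped arrays. CG13321 had 1.18 on replicate 2 with 0.07 and -0.22 swapped, and CG14329 had 1.10 on replicate 1 with 0.15 and -0.55 swapped. Rab9, a small GTPase of endosome transport, had 1.05 on replicate 2 with 0.43 and -0.32 swapped, and CG2685 had 1.03, 0.44 and -0.27. These 5 genes had a value on 1 forward array each, so that no other forward array bears on them. Cpr67Fa1, Rab9 and CG2685 did not pass in both readings when centred.

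**Figure D3:**
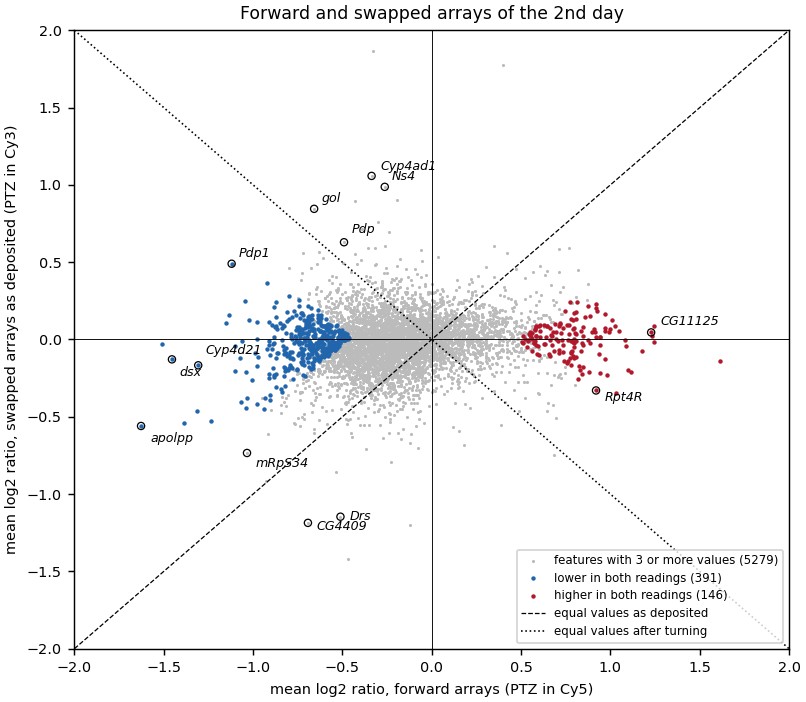
Mean log2 ratio of the swapped arrays as deposited (vertical axis) against that of the forward arrays (horizontal axis) for 5279 features, with the 391 lower (blue) and 146 higher (red) in both readings and named genes circled. Points on the dashed line would have equal values as deposited and points on the dotted line equal values after turning; most coloured points lie along the horizontal line at 0, mRpS34 lies near the dashed line, and gol near the dotted one.

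The signs on the 4 arrays give a further view without a test, which depends on where 0 is set. Among features measured on both forward arrays, 68.7% were below 0 on replicate 1 and 77.6% on replicate 2. The patterns were not counted with centred arrays, so the counts below and above 0 cannot be compared as an effect of PTZ. Of 4111 features with 4 values, 1032 were below 0 on all arrays as deposited and 131 above 0. Another 595 were below 0 on the forward and above 0 on the swapped arrays, the pattern of a lower gene if turned, and 101 had the reverse. A size above 0.3 on every array was reached by 46 features below 0 on all 4 arrays and by 0 above, and by 2 in each of the opposed patterns. Beside CG4409, mRpS34 and apolpp, the named ones whose smallest size on any array was largest were CG44014 (-0.64, -0.83, -0.48 and -0.65), CG2157 (-0.46, -0.50, -0.53 and -0.50) and jbug, a filamin gene of the actin cytoskeleton (-0.43, -0.51, -0.61 and -0.43). A 2nd feature of jbug had -0.02 and -0.01 on replicates 2 and 3. Turned, the means of these 3 were -0.09, 0.02 and 0.02. In the opposed pattern, gol was followed by beat-Ic, a gene of an axon guidance family, with -0.69, -0.68, 0.29 and 0.30. RASSF8, a scaffold gene of epithelial junctions, had -0.51, -0.71, 0.29 and 0.77. These genes were chosen after their values were seen.

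Genes of synaptic transmission were lower more often than higher on the forward arrays, at a rate to be read against the 33.3% of all features. Several of these groups (synaptic transmission, axon guidance, actin, Wnt and other signalling, transcription) were named by the study from these same arrays, so that their direction here is not independent evidence. In the synaptic vesicle cycle 7 of 11 genes were lower and 0 higher, with a median of -0.32. Rab3, the vesicle GTPase, had -0.64 and -0.77, and shi, the dynamin of vesicle retrieval, had -0.56 and -0.70. On the swapped arrays Rab3 had 0.14 and 0.09, and shi 0.07 and -0.11. After centring, these 2 of the 11 genes were lower, near the 15.1% of all features. Clc, unc-13, Amph, Synj and aux passed as deposited only. Among 9 genes of glutamate signalling and metabolism 6 were lower and 0 higher, with a median of -0.45. After centring 3 of these genes were lower and 1 higher. With neighbours subtracted their median was -0.07, against -0.005 over all named genes. GluClalpha, a glutamate-gated chloride channel that belongs to the family of GABA receptors, had -0.85 and -0.67 forward and -0.35 and -0.32 swapped. Eaat2, a transporter of the glutamate transporter family, had -0.65 and -0.48 forward and 0.12 and 0.28 swapped, and Gdh, glutamate dehydrogenase, had -0.39 and -0.54 forward with -0.36 and -0.06 swapped. As deposited, GluClalpha was thus below 0 on all 4 arrays and Eaat2 on the forward ones. With the swapped arrays turned, Eaat2 was below 0 on all 4 and GluClalpha on the forward ones.

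Of 3 genes of GABA signalling measured on both forward arrays, 1 was lower and 1 higher, beside 33.3% and 7.43% of all features. Lcch3, a subunit of a GABA-gated channel, had -0.50 and -0.46 forward and 0.10 on replicate 3. Gabat, the transaminase that breaks GABA down, had 0.81 and -0.12 forward, with opposite signs, and 0.08 on replicate 4. Gad1, which makes GABA, had -0.02 and -0.32 forward and -0.16 and -0.03 swapped and did not pass. Of these 3 genes Lcch3 alone encodes a channel subunit. The list had 4 genes with a value, not all of them on both forward arrays.

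Both acetylcholine genes with a call were lower, out of 3 measured. Ace, acetylcholinesterase, had -0.68 and -0.71 forward with 0.10 and -0.02 swapped, and ChT, the choline transporter, had -0.75 and -0.57 with 0.00 and 0.03. The receptor subunit gene nAChRbeta1 had -0.08 and -0.05 forward and -0.69 and 0.01 swapped. Of 10 monoamine genes 5 were lower and 0 higher. Beside DopEcR these were the serotonin receptor genes 5-HT1A (-0.78 and -0.47 forward) and 5-HT2A (-0.62 and -0.50), the acetyltransferase gene speck (-0.49 and -0.19) and Ddc, the decarboxylase that makes dopamine and serotonin. Ddc had -1.27 and -0.51 on one feature, while another had 1.08 on replicate 1 and no value on replicate 2, so that its direction is unsettled. Of 5 voltage-gated and potassium channel genes 3 were lower, namely Shab (-0.60 and -0.74), the calcium channel subunit gene stj (-0.47 and -0.51) and Sh, the Shaker channel (-0.48 and -0.35). Ih and Irk1, with forward means of -0.22 and -0.21, did not pass. Over all features 33.3% were called lower. After centring, 2 of 3 acetylcholine, 4 of 10 monoamine and 2 of 5 channel genes were lower, against 15.1% of all features.

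In the smaller groups, signalling and guidance genes were called lower or not called. Over all features 33.3% were called lower, and 74.8% had a forward mean below 0. All 5 Wnt genes measured were lower, led by the corepressor gene CtBP (-0.68 and -0.61 forward, -0.30 and 0.04 swapped) and nkd, an inhibitor of the pathway (-0.70 and -0.57, then 0.00 and 0.28). The 3 Ras and MAP kinase genes were also lower, kay, the fly Fos, with -0.63 and -0.50, puc, a phosphatase of the JNK kinase, with -0.54 and -0.57, and sty, the Sprouty antagonist, with -0.44 and -0.51. Of 6 TGF-beta and Jak-STAT genes 4 were lower, Dad (-0.83 and -0.41), mav (-0.58 and -0.56), Actbeta (-0.32 and -0.61) and tkv (-0.44 and -0.49). In axon guidance and growth 4 of 7 were lower, NetB, a Netrin guidance cue (-0.997 and -0.73), the adhesion molecule gene Nrg (-0.80 and -0.64), bnb (-0.73 and -0.39) and Eph (-0.40 and -0.54). NetB had 0.30 and -0.16 on the swapped arrays and Nrg -0.19 and -0.27. The receptor genes fra and robo1 and the gene comm had forward means of -0.10, -0.08 and -0.04 and did not pass. After centring, the count of lower genes was 2 of 5, 3 of 3, 3 of 6 and 4 of 7 in these 4 groups, against 15.1% of all features. With neighbours subtracted, puc had a forward mean of 0.06, the opposite sign.

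In the list of activity-regulated genes 6 of 7 were lower, with a median of -0.56, against 33.3% lower over all features. After centring the list had 4 of 7 lower, against 15.1% of all features. At its head, gol was above 0 on both swapped arrays as deposited and Pdp1 on replicate 4 alone, and the swapped call of Pdp1 (limma, adjusted p = 0.038) was lost after centring (0.43). Pka-R1, a regulatory subunit of protein kinase A, had -0.46 and -0.67 forward and 0.02 and -0.16 swapped. Of 8 clock genes 6 were lower, Pdp1, nocte (-0.61 and -0.63), per (-0.40 and -0.54), dco (-0.48 and -0.43), slmb (-0.29 and -0.41) and jet (-0.27 and -0.35). The output neuropeptide gene Pdf had 0.09 and -0.12 and its receptor gene Pdfr -0.12 and -0.28, and neither passed. The period gene had 0.08 and -0.10 on the swapped arrays. Of the 8 clock genes 3 were lower after centring. For glycogen control and adipokinetic hormone 5 of 6 were lower, and 3 of 6 after centring. They were led by the glycogen-binding subunit genes Gbs-76A (-0.69 and -0.69) and Gbs-70E (-0.50 and -0.58). On the swapped arrays Gbs-76A had 0.17 and 0.13, and Gbs-70E -0.03 and -0.01.

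RNA polymerase II and general transcription factors had 5 lower and 4 higher of 22 and a median of -0.02. The counts in these groups stand beside 33.3% lower and 7.43% higher over all features. MED19 (-0.75 and -0.85) and Taf4 (-0.82 and -0.52) were low, TfIIEbeta (0.95 and 1.18) and MED24 (0.84 and 0.63) high. Cytosolic ribosomal proteins had 2 lower and 1 higher of 17, with a median of -0.02, and mitochondrial ones 4 lower and 3 higher of 21. The 2 lower cytosolic ones were RpL7-like (-0.42 and -0.45) and RpL32 (-0.255 and -0.53). Another feature of RpL7-like was called higher (0.35 and 0.34). Other features of RpL32 measured on both forward arrays did not pass, so that the direction of both genes is unsettled. In the respiratory chain and ATP synthase 4 were lower and 5 higher of 29, with a median of -0.02. The complex I gene ND-13B had -0.63 and -0.44 and the ATP synthase gene ATPsynE -0.31 and -0.66, while SdhD had 0.29 and 0.49 and ND-51 0.44 and 0.40. A 2nd feature of SdhD had 0.15 and -0.11 and did not pass. Of 17 proteasome genes 1 was lower and 4 higher, with a median of 0.01. After centring, these 5 groups had 3 lower and 7 higher, 0 and 4, 2 and 7, 1 and 11, and 0 and 6, so that their place above or below 0 depends on the centring. Their medians were above that of all named genes, a gap that centring cannot change because it shifts every forward mean alike.

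Of 27 cytochrome P450 genes 7 were lower and 0 higher, against a background of 33.3% and 7.43%, and after centring 5 were lower and 4 higher. Beside Cyp4d21, genes of the same subfamily were lower, Cyp4d2 (-0.61 and -0.65 forward, -0.67 and -0.03 swapped) and Cyp4d8 (-0.57 and -0.65, then -0.22 and 0.09). Related P450 cDNAs can hybridize to each other's spots, so that these are not independent. Of 22 genes of chemosensory proteins and receptors 6 were lower and 4 higher, and after centring 2 were lower and 5 higher. Obp19c was lower on one feature (-0.70 and -0.45 forward) and higher on another (0.705 and 0.095), with both calls past the threshold. Obp99d had 0.91 and 0.69 forward with 0.20 and -0.79 swapped, and its 2nd feature was also high on the forward arrays with 0.97 and 1.51. Obp59a had -2.14 on replicate 1 and 1.48 on replicate 2, with opposite signs, while its other feature had 0.08 and 0.25. Of 3 haemocyte markers, Col4a1, a basement membrane collagen, was lower (-0.45 and -0.51), and the scavenger receptor gene crq was higher (0.49 and 0.42) with NimC1. The part of haemocyte content in these values was not tested.

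Of 11 glycolysis genes 1 was lower, Gpdh1, the glycerol-3-phosphate dehydrogenase (-0.28 and -0.76 forward), and 0 were higher. This and the counts below stand beside 33.3% lower and 7.43% higher over all features. Hexokinase A (Hex-A) had -0.34 and -0.27 and phosphoglycerate kinase (Pgk) -0.43 and -0.15, and neither passed. In the TCA cycle and pyruvate entry 4 of 7 were lower, led by Ogdh, a subunit of oxoglutarate dehydrogenase, with -0.71 and -0.64 forward and -0.34 and -0.07 swapped. Of 7 vacuolar ATPase genes, which acidify synaptic vesicles and lysosomes, 3 were lower. Vha68-3 and VhaSFD were below 0 on all 4 arrays with -0.36, -0.32, -0.34 and -0.33 and with -0.34, -0.54, -0.24 and -0.39. Translation factors had 7 lower and 0 higher of 20, a share of lower genes near that of all features. Among them were eIF4G2 at -0.65 and -0.63 and eIF4G1, the scaffold of cap binding, at -0.42 and -0.78. After centring, these 2 were the lower ones among translation factors, beside 15.1% of all features. TCA cycle and pyruvate genes then had 2 of 7 lower and vacuolar ATPase genes 1 of 7.

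Protein folding genes went both ways, with 3 lower and 3 higher of 11 (1 and 3 after centring). Hsp60C, a mitochondrial chaperonin, had 0.71 and 0.77 forward, and CCT1, a subunit of the cytosolic chaperonin, 0.45 and 0.62. The calnexin gene Cnx99A had -0.53 and -0.62 on one feature and 0.14 and -0.07 on another, which did not pass. Hsp60C and CCT1 were below 0 on replicate 4, with -0.25 and -0.20. Of 14 glutathione and UDP-glycosyl transferase genes 2 were lower and 2 higher (0 and 5 after centring), with GstD9 at 0.70 and 0.45 and GstE14 at -0.60 and -0.32. Of 8 immune genes 1 was lower, Drs, and 0 higher. Phototransduction had 5 lower and 1 higher of 14 (3 and 2 after centring), near the 33.3% and 7.43% of all features. The scavenger receptor gene santa-maria, needed for carotenoid uptake, had -1.31 and -0.45, and rdgA, the diacylglycerol kinase of photoreceptors, -0.66 and -0.84. Arr2, the major arrestin, was the higher one with 0.61 and 0.16 forward and -0.11 on replicate 3. Of 5 eye pigment genes 1 was lower, Pu, the GTP cyclohydrolase that makes pteridines (-0.51 and -0.64). Among 6 corepressor and chromatin genes 5 were lower, including Smr, a nuclear receptor corepressor, with -0.47 and -0.51 forward and -0.28 and -0.21 swapped, and among 5 actin regulators 2, Abi (-0.52 and -0.36) and Cyfip (-0.32 and -0.38). With neighbours subtracted Cyfip had a forward mean of 0.12, the opposite sign, and after centring 0 actin regulators passed.

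Markers of glia, midgut, eye and reproductive tissue gave few calls, beside 33.3% lower and 7.43% higher over all features. Of 3 glial markers 1 was lower, glutamine synthetase Gs2 (-0.30 and -0.60 forward, -0.17 and -0.40 swapped), while moody had 0.29 and -0.02 and loco -0.13 and -0.07. Of 4 midgut markers 0 were lower or higher, with a median of 0.02. Of 4 photoreceptor markers 0 were lower and 1 higher, Arr2. The single testis marker measured on both forward arrays, ocn, had 0.21 and -0.21 and the accessory gland gene Acp32CD -0.11 and -0.36, and neither passed.

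**Figure D4:**
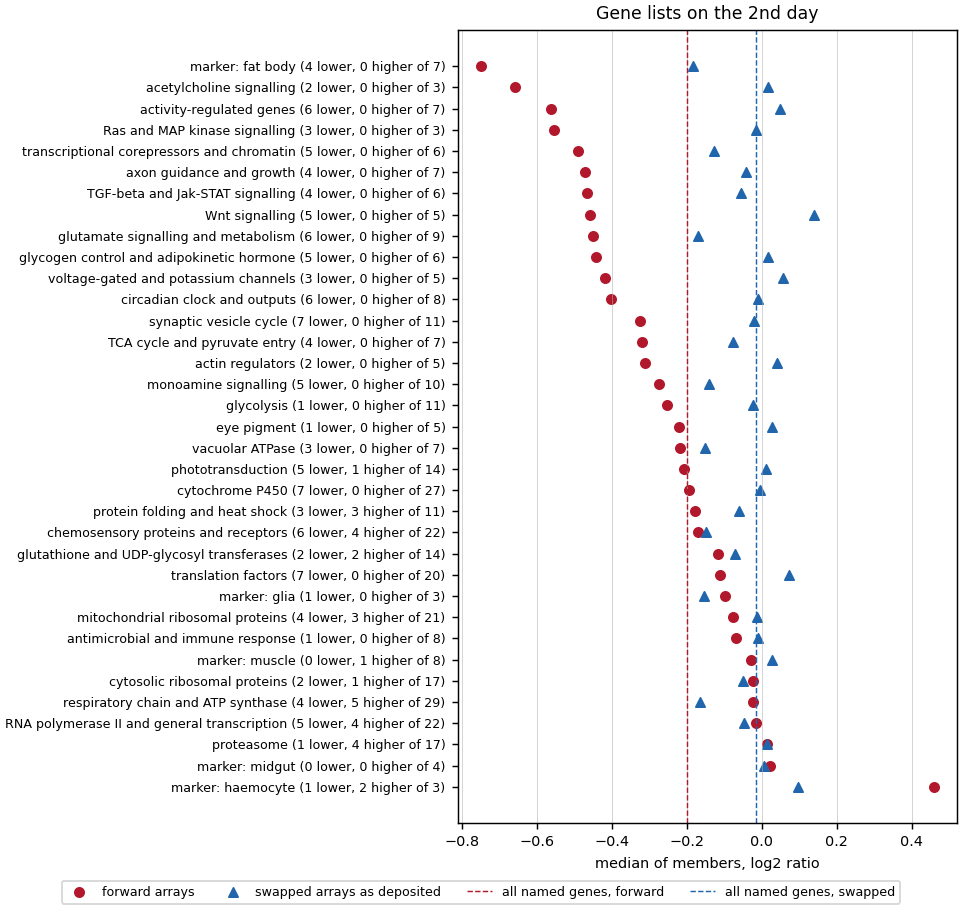
Median log2 ratio of the members of 35 gene lists with 3 or more members measured on both forward and both swapped arrays, on the forward arrays (circles) and the swapped arrays as deposited (triangles), with dashed lines at the medians of all named genes (-0.20 and -0.02). Counts beside each name are the members called lower and higher on the forward arrays; forward medians run from -0.75 for fat body markers to 0.46 for the 3 haemocyte markers, and swapped medians stay within a narrower range.

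Against 12 hrs, the forward ratios of the 2nd day were lower for 2 of 3581 features (0.0559%) and higher for 0. One was apolpp, whose ratios were -0.15 and -0.11 at 12 hrs, a difference of -1.50 ± 0.19 (fitted difference ± SE; limma, adjusted p = 0.016). Its other feature had -0.20 and -0.42 at 12 hrs and did not pass. The other was a feature without a gene symbol, named after its values were seen, which had 0.60 and 0.84 at 12 hrs and -0.74 and -0.69 on the 2nd day, a difference of -1.43 ± 0.19. Before adjustment 762 lower and 25 higher ones had p under 0.05, and over the features compared the median difference was -0.27, so that the forward arrays of the 2nd day were lower as a whole. With centred arrays or with the replicate number as a block, 0 passed. For dsx the ratios at 12 hrs were -0.58 and -0.60 and the difference was -0.86 ± 0.19 (adjusted p = 0.11), and for gol 0.17 and 0.09 with -0.79 ± 0.19 (adjusted p = 0.13).

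The 7th day could be set against the 2nd in 1405 features, since its forward replicate 2 had values on 6148 of 27648 spots. There 0 passed in limma, while 229 lower and 22 higher ones had p under 0.05 before adjustment. In data simulated with independent noise and 200 changed features, 37.5% of differences of 1 log2 unit were recovered against 12 hrs. Against the 7th day 15.5% were recovered, so that differences of this size could be missed. Leaving out replicate 1 or 2 of the 7th day, with the remaining array assumed to vary like the others, gave 508 and 591 features, so that this comparison depends on single arrays. Values of the leading genes on the 7th day were few. On its forward replicate 1, apolpp had -0.64, dsx -0.18 and Cyp4d21 -1.90, with no value on replicate 2, while Pdp1 had -0.16 and 0.65.

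**Figure D5:**
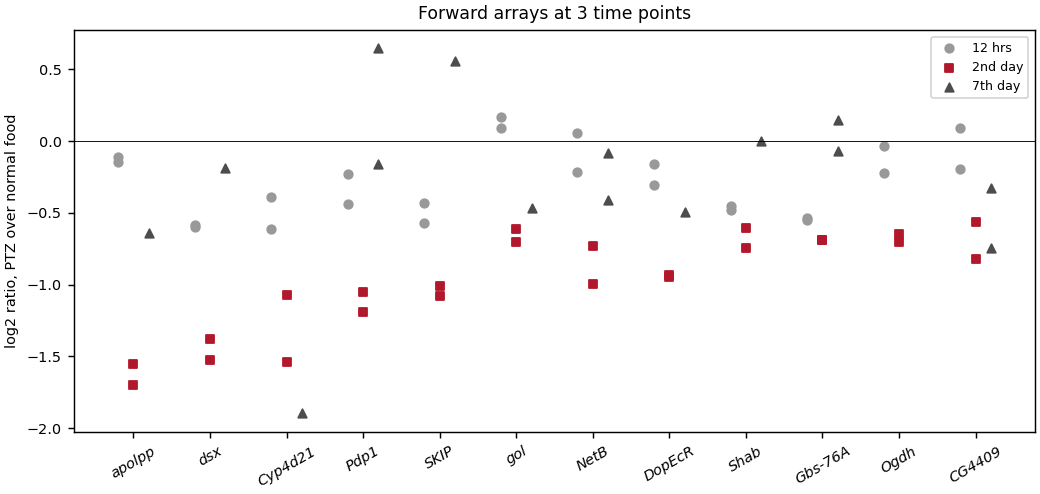
Log2 ratios of 12 named genes on the forward arrays at 12 hrs (circles), on the 2nd day (squares) and on the 7th day (triangles), with 1 symbol per array that had a value. The squares of apolpp, at -1.70 and -1.56, lie well below its circles at -0.15 and -0.11, and most genes have 1 triangle or none.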

How the data were processed

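Labelled antisense RNA of PTZ and NF heads was hybridized together to cDNA arrays of 27648 spots, and 4 arrays of the 2nd day were compared with 4 each of 12 hrs and the 7th day. The deposited values are log2 ratios of the dye signals, with the direction on the swapped arrays not stated, which the authors scanned with GenePix and normalized by ratio in Acuity, after dropping saturated, dim, flagged or uneven spots. Raw intensities were not used here, so the depth of signal behind a ratio is unknown and the number of arrays limits precision. Values of neighbouring features still resembled each other after this normalization. All 12 sample columns were mapped.

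The mean of 2 adjacent spots of a probe was taken as a feature, and features with values on 3 or more arrays were kept for fits over the 4 arrays (both arrays for fits on 1 orientation). Tests were limma 3.58.1 in R 4.3.3 (lmFit and eBayes, two-sided, Benjamini-Hochberg over all features, threshold 0.05), in place of the 1-class SAM of the study. A separate implementation of 1-class SAM, with all sign flips, was run as an alternative. The forward and swapped arrays were fitted apart and together, in both readings of the swapped ratio. Alternatives were centring, scaling, subtraction of neighbouring features, both spots required, robust eBayes, values on all 4 arrays, 1 fit over 12 arrays, leaving out each replicate, and a replicate block for time comparisons. Data were simulated with the spread and missing values of these arrays and 200 changed features each. On the forward arrays 84% of changes of 0.5 log2 units and 99.5% of changes of 1 were recovered, beside 44 and 10 false calls. On the swapped arrays 43% and 100% were recovered, beside 11 and 17. The simulated noise was independent between features and centred on 0. It held no dye effect, array shift or resemblance of neighbours, so that recovery and false calls on the real arrays may differ.

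Symbols came from the platform annotation, updated through RefSeq where possible (7447 features). For 12430 spots no symbol was given here, and 102 had several and were not named. For genes with several features, the feature with values on most arrays and spots, then the first in spot order, was described. Other features are given for some of the genes where they disagree. Named genes were up to 12 per direction with the largest forward means, up to 8 per direction with the same sign in both readings, up to 4 per direction on the swapped arrays, up to 3 per list measured on 4 arrays, and those past the threshold between time points. Further list members, and the genes of the sign patterns, were named after their values were seen. The members and lists were chosen with earlier results of these data known.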

Additional observations from a re-analysis of the deposited data

Results flagged for a closer look

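In 3 named genes 1 array stood apart from the other arrays of the 2nd day by Dixon's ratio. As deposited, Drs had -1.91 on replicate 3 against values up to -0.39 (ratio 0.881), and pinta had 0.38 on replicate 1 against values down to -0.90 (ratio 0.838). With the swapped arrays turned, Pdp1 had 0.13 on replicate 3 against values down to -1.19 (ratio 0.891). Of all 4111 features with 4 values, 3.41% exceeded the same critical value as deposited and 3.48% turned, and 32 named genes were looked at.

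The forward ratios of the 2nd day differed from those of 12 hrs for apolpp, by -1.50, and for a feature without a gene symbol, by -1.43 (limma, adjusted p = 0.016 for each). Neither passed with centred arrays.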

How the results depend on the processing

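With centred arrays the calls were 21 on the swapped arrays, 0 over all arrays as deposited, 530 for the sum of orientations, 274 for the difference, 137 for both readings and 0 against 12 hrs. With arrays centred and scaled they were 24, 0, 55, 0 and 0, in the same order up to both readings. With neighbours subtracted they were 867 on the forward arrays, 4 on the swapped arrays, 0 as deposited, 194 for the sum, 53 for the difference and 25 in both readings. With values required on all 4 arrays, 5 passed as deposited and 639 for the difference. SAM called 1 turned and 1145 as deposited at a false discovery rate of 0.05, and 702 and 2428 at 0.14. Requiring both spots and robust eBayes moved no count by more than 1.5 times.

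Leaving out 1 replicate at a time gave 873 to 938 calls on the forward arrays, 18 to 46 on the swapped arrays, 0 to 5 turned, 0 to 102 as deposited (102 without replicate 4), 522 to 1073 for the sum, 265 to 621 for the difference, 110 to 203 in both readings, 0 to 11 against 12 hrs and 0 to 591 against the 7th day. A lone array left in a group was assumed to vary like the others. The mean of the array medians ran from -0.14 to -0.07.

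Same-numbered arrays of different time points are not paired by the labels, and deviations of forward arrays correlated by -0.0847 with 12 hrs and -0.152 with the 7th day. With the replicate block 0 passed in both comparisons, and with the numbers crossed, an alternative chosen after seeing the data, 1 passed against the 7th day. With all arrays of each time point, turned or as deposited, 0 passed against 12 hrs and 1 against the 7th day.

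Of 108 named genes called on the forward arrays, 88 stayed past the threshold with centring and 57 with neighbours subtracted, where Cyfip (0.12) and puc (0.061) turned positive. With 1 forward replicate left out, Cyp4ad1 had 0.006 and -0.68. The causes were not tested.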
